A study of Gallus gallus with 9 samples.

Results

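The livers of adult hens that had lost part of their egg white as embryos were compared with the livers of hens from untouched eggs. The comparison used 6 of the 9 libraries of the series, 3 from albumen-deprived and 3 from non-manipulated hens, which the sample labels name as albumen 1 to 3 and control 1 to 3. All hens were female Isa Brown layers of 55 weeks of age, kept in the same room. In the albumen-deprived group a hole had been drilled in the egg after 1 day of incubation, 3 ml of albumen had been exchanged for saline, and the hole had been closed with paraffin. Non-manipulated eggs had none of these steps, so drilling, saline and loss of albumen cannot be told apart in this comparison. The 3 sham-manipulated hens, whose eggs had been drilled and closed without any exchange, entered the fit and are given beside the genes where they bear on this point. The question was which liver transcripts still differed in adult hens after partial loss of the embryo's protein supply.

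In birds the liver is the main site of fat synthesis, and in a laying hen estrogen drives it to make the egg yolk precursors, which are very low density lipoprotein (VLDL) particles and vitellogenin. The liver also makes cholesterol from acetyl-CoA through the mevalonate pathway, turns part of it into bile acids, stores retinol, breaks down amino acids and answers growth hormone with insulin-like growth factor. Egg albumen is the protein store of the avian embryo.

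The 6 libraries held between 13720872 and 17592938 counts each, and a level is given as CPM, the counts of a locus per 1e+06 counts of the library, after scaling by the trimmed mean of M values (TMM). Hepatocyte markers took 145600 to 166900 summed CPM in the non-manipulated and 146300 to 163700 CPM in the albumen-deprived hens, and 10 of 10 were expressed, so the markers that define liver were present. Exocrine pancreas markers stayed at or below 1.38 summed CPM in every library. Macrophage markers stood at 447.7 to 1317 summed CPM in the non-manipulated hens and at 1190 to 1270 CPM in the albumen-deprived hens. Non-manipulated hen 1 had the lowest level of all 9 hens in 11 of the 11 macrophage markers, and the part of this hen's lower macrophage share in the results was not tested beyond the values without it given below. In RNA of whole tissue, fewer cells of a type and less RNA per cell cannot be told apart.

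Few loci passed the cut-offs between the groups. Of 12324 loci tested, 6 were DE (0.0487% of the loci), meaning an unadjusted P-value under 0.001 with a log2-fold change over 1 in size. Of these, 3 were higher after albumen removal (0.0243%) and 3 were lower (0.0243%). Among the higher loci, XLOC_007416 and XLOC_008688 passed the filter on low counts only through the albumen-deprived hens. A P-value under 0.001, whatever the fold change, was reached by 8 loci, against 12.3 expected from that threshold alone. The loosened cut-off, a P-value under 0.005 and an at least 1.5-fold change, was passed by 30 loci (0.243%), 12 higher (0.0974%) and 18 lower (0.146%), of which 21 were previously identified genes and 9 were loci with no gene name. At an unadjusted P-value under 0.05, 398 loci differed (3.23%), 204 higher (1.66%) and 194 lower (1.57%), against 616.2 expected from that threshold alone. No locus had an adjusted P-value under 0.05 in the edgeR quasi-likelihood test (the lowest was 0.0640), whereas edgeR's likelihood ratio test gave 6 such loci and DESeq2 gave 8. In 5 of 17 other settings of the quasi-likelihood test 1 locus was under 0.05, with an adjusted P-value of 0.0174 to 0.0302. It was FLVCR2 without a filter on low counts, with a replicate block, with that block and full quantile normalization within GC bins together and without non-manipulated hen 3, and it was XLOC_019966, a locus with no gene name, with that normalization alone. The individual values of the groups did not overlap for 1034 loci (8.39%), 4.55% higher and 3.84% lower. These included each of the 30 loci past the loosened cut-off. Genes named below for their P-value were chosen on these same hens, so a lack of overlap in them is description and no further evidence. Over all tested loci the median log2-fold change was 0.0071, and the middle 90 percent of loci lay between -0.47 and 0.47. With 3 hens per group an exact permutation test of a single gene cannot fall below 0.1 (two-sided), and every call below comes from the model fitted across all loci. Besides FLVCR2 (0.0640), ENSGALG00000026540 (0.543), ULK1 (0.699) and MTTP (0.967), every named gene had an adjusted p that rounds to 1.00, so all single genes below are calls at the unadjusted cut-offs, given with their log2-fold change ± SE.

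FLVCR2, a transporter of the family of heme and choline carriers, had the lowest P-value. Its level was 20.7, 21.1 and 9.58 CPM in non-manipulated hens 1 to 3 and 1.68, 1.25 and 0.854 CPM in albumen-deprived hens 1 to 3. Every albumen-deprived hen was below every non-manipulated hen, and the gene (chromosome 5, 37575337 to 37606748 of Galgal4, plus strand, 12 exons) fell with a log2-fold change of -3.75 ± 0.40 (SE; edgeR adjusted p = 0.0640). The sham-manipulated hens were also low, at 2.26, 1.19 and 1.32 CPM, and albumen-deprived minus sham-manipulated was -0.33 ± 0.42. FLVCR1, the related transporter, was at 7.52, 10.0 and 12.99 CPM in the non-manipulated hens and at 11.2, 8.84 and 12.2 CPM in the albumen-deprived hens, with overlapping groups and a log2-fold change of 0.07 ± 0.21. ENSGALG00000026540, a short gene on an unplaced contig that the files do not describe by name, had 7.37, 5.73 and 8.85 CPM in the non-manipulated and 2.13, 1.71 and 2.96 CPM in the albumen-deprived hens. It too was lower in all 3 albumen-deprived hens, with a log2-fold change of -1.69 ± 0.26 (adjusted p = 0.543). The sham-manipulated hens, at 3.53, 3.27 and 2.77 CPM, were also below every non-manipulated hen. Albumen-deprived minus sham-manipulated was -0.50 ± 0.26.

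The remaining named DE gene was PDE11A, a phosphodiesterase that breaks down cyclic AMP and cyclic GMP. It lies on chromosome 7 (15051870 to 15179577, plus strand, 23 exons). Its level was 396, 316 and 314 CPM in the non-manipulated hens, and 168, 146 and 167 CPM in the albumen-deprived hens. The groups were far apart and each was tight, with a log2-fold change of -1.09 ± 0.23. Sham-manipulated hens 1 and 3 were at 343 and 336 CPM, close to the non-manipulated hens, while sham-manipulated hen 2 was at 185 CPM. The albumen-deprived hens were lower than the sham-manipulated hens as well, with a log2 difference of -0.84 ± 0.23. PDE11A did not pass the DE cut-off without any 1 of the 6 hens compared or without sham-manipulated hen 3 (log2-fold change -0.97 to -1.15), nor after full quantile normalization within GC bins (-1.01), and its P-value stayed under 0.05 under each of the 19 other settings tried. It also missed the cut-off with that normalization and a replicate block together, and from replicates 1 and 2 of each group alone.

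The 3 DE loci that were higher lie together on chromosome 2 and carry no gene name. XLOC_007416 and XLOC_008688 could enter the test only through the albumen-deprived hens, in which they were higher, so their calls are description. Between MC2R (96404418 to 96405491, plus strand), which encodes the receptor for adrenocorticotropic hormone, and MC5R (96439432 to 96444055, minus strand), which encodes another melanocortin receptor, the merged gene models place 12 unnamed loci from 96409512 to 96437857. XLOC_007417, the longest of them with 3 exons on the plus strand, was at 2.73, 1.13 and 2.58 CPM in the non-manipulated hens and at 12.1, 4.85 and 11.4 CPM after albumen removal. Its log2-fold change was 2.13 ± 0.43, and the sham-manipulated hens at 1.04, 1.49 and 0.790 CPM lay with or under the non-manipulated hens. XLOC_008688, a model that lies inside the span of XLOC_007417, had a log2-fold change of 2.30 ± 0.46. XLOC_007416, which lies nearer to MC2R and has 2 exons, was at 0.442, 0.200 and 0.784 CPM against 4.00, 3.42 and 6.05 CPM. Here the sham-manipulated hens were at 0.463, 2.13 and 0.461 CPM, so that sham-manipulated hen 2 was above every non-manipulated hen. The log2-fold change of XLOC_007416 between albumen-deprived and non-manipulated hens was 3.19 ± 0.67. All 3 were lost from the DE calls when single hens were left out, and their log2-fold changes then lay between 2.83 and 3.79 for XLOC_007416 (without any 1 of the 6 hens compared), 1.82 and 2.33 for XLOC_007417 (without any 1 of the non-manipulated hens, sham-manipulated hens 1 and 3 or albumen-deprived hens 1 and 3) and 1.96 and 2.57 for XLOC_008688 (without any 1 of the non-manipulated hens, sham-manipulated hens 1 and 2 or albumen-deprived hens 1 and 3). None of the 3 passed the DE cut-off with a replicate block, alone or together with full quantile normalization within GC bins. From replicates 1 and 2 of each group alone none of them passed it either. XLOC_007416 and XLOC_007417 also missed it with that normalization alone, and XLOC_007417 and XLOC_008688 when only the 6 libraries compared were fitted. The P-values of all 3 stayed under 0.05 under each of the 19 other settings.

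The stretch was looked at as a whole after these values had been seen, so its sum is a description. All 12 loci had non-overlapping groups with the albumen-deprived hens on top, as had 4.55% of all tested loci. Most of the 12 were below the filter on low counts. XLOC_008696, for example, had 1, 1 and 1 counts in the non-manipulated and 3, 4 and 10 in the albumen-deprived hens. Of the 5 loci that passed the filter all 5 rose at a P-value under 0.05, against 1.66% of all loci. However, all of them but XLOC_007417 could pass the filter only through the hens in which they were higher. This count is therefore no further evidence. Summed over the 12 loci without any filter, the counts were 95, 50 and 108 in the non-manipulated hens and 482, 272 and 619 in the albumen-deprived hens. On the CPM scale these sums were 7.0, 3.33 and 6.05 against 31.1, 15.5 and 40.7, or 5.46 ± 1.90 (SD, n = 3) against 29.1 ± 12.7. The sham-manipulated hens were at 3.18, 5.80 and 2.11 CPM. Thus the lowest albumen-deprived hen, hen 2, was above the highest of the other 6 hens, and the mean of the albumen-deprived hens was 5.33-fold that of the non-manipulated hens. Because the counting ignored strand and the models lie inside or next to each other, the 12 loci are not independent and may be pieces of the same transcripts.

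MC5R itself went the other way. Its level was 186, 216 and 183 CPM in the non-manipulated hens and 91.1, 114 and 174 CPM in the albumen-deprived hens, with a log2-fold change of -0.63 ± 0.23. The groups did not overlap, but albumen-deprived hen 3 was near the non-manipulated hens, and the call was lost without non-manipulated hen 2 (log2-fold change -0.55), albumen-deprived hen 1 (-0.44) or albumen-deprived hen 2 (-0.56). MC2R had at most 2 counts in any library and was not tested. The unnamed locus beyond MC5R, XLOC_008697, was higher with a log2-fold change of 1.56 ± 0.67. The next named neighbours did not pass the test, with a log2-fold change of -0.04 ± 0.13 for RNMT, an mRNA cap methyltransferase, and 0.27 ± 0.15 for FAM210A.

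**Figure D1:**
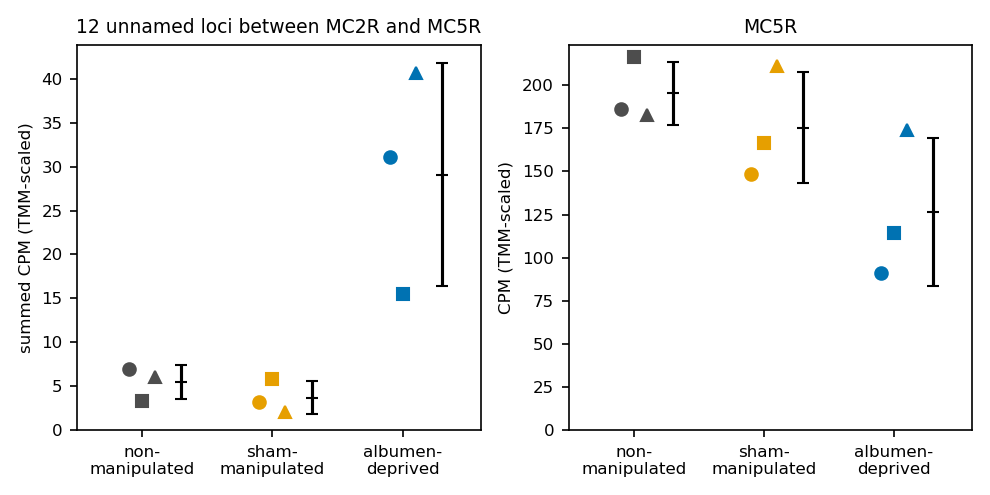
Left, TMM-scaled CPM summed over the 12 unnamed loci between MC2R and MC5R, and right, TMM-scaled CPM of MC5R, with 1 point per hen (circle, square and triangle for hens 1 to 3) and the mean ± SD of 3 hens beside each group. The albumen-deprived hens lie between 15.5 and 40.7 in the sum, above all other hens, and between 91.1 and 174 for MC5R, below all non-manipulated hens.

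ULK1 encodes the kinase that starts the formation of autophagosomes, the vesicles in which cells digest their own content, and it was the named gene with the lowest P-value among those that rose. Its level was 20.5, 17.9 and 18.1 CPM in the non-manipulated hens and 34.4, 33.8 and 40.5 CPM in the albumen-deprived hens. Every albumen-deprived hen was above every other hen, since the sham-manipulated hens were at 16.5, 20.8 and 13.9 CPM. The log2-fold change was 0.95 ± 0.16 against the non-manipulated hens (adjusted p = 0.699) and 1.08 ± 0.16 against the sham-manipulated hens (adjusted p = 0.226). ULK1 passed the loosened cut-off under each of the 19 settings other than the one reported.

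Few other autophagy genes were called. Of 43 tested members of the autophagy and mTOR list 3 rose (6.98%, against 1.66% of all loci) and 0 fell at a P-value under 0.05. The median log2-fold change of the list was 0.0084. The second was TSC1, which holds back the mTOR complex and was at 27.9, 28.5 and 28.1 CPM in the non-manipulated and 34.6, 34.2 and 36.5 CPM in the albumen-deprived hens (log2-fold change 0.32 ± 0.11). Both groups were tight here and did not overlap. The third was BNIP3, a mitochondrial protein that marks mitochondria for autophagy, with a log2-fold change of 0.41 ± 0.18. The call of TSC1 was lost without albumen-deprived hen 3 (log2-fold change 0.28), and that of BNIP3 without any 1 of the non-manipulated hens, sham-manipulated hen 3 or albumen-deprived hens 1 and 2 (0.32 to 0.46). Among the members that did not pass the test, the log2-fold change was 0.09 for ULK2, 0.12 for SQSTM1, an adaptor that is itself degraded by autophagy, -0.07 for MAP1LC3B, which coats the autophagosome, and -0.20 for MTOR.

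MTTP, the transfer protein that loads lipid onto apolipoprotein B and so starts the assembly of VLDL, was higher in the albumen-deprived hens. Its level was 62.9, 70.2 and 62.8 CPM in the non-manipulated hens and 110, 103 and 103 CPM in the albumen-deprived hens, with a log2-fold change of 0.69 ± 0.12. The groups did not overlap. Sham-manipulated hens 1 and 3, at 81.0 and 77.8 CPM, lay between the groups and hen 2, at 63.7 CPM, was within the non-manipulated range, and all were below the albumen-deprived hens (log2 difference 0.51 ± 0.12). MTTP was the 1 gene of 9 egg yolk precursor genes that rose (11.1%, against 1.66% of all loci), while 0 fell. The median of the list was -0.03.

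None of the genes for the cargo proteins of the yolk passed the test. VTG2, the major vitellogenin, had a log2-fold change of -0.03 and APOB, the backbone of VLDL, of -0.05. TPRXL, which the files describe as vitellogenin 1, was at -0.07. APOVLDLII, the small apolipoprotein of the laying hen's VLDL, was at 73623, 76635 and 65086 CPM in the non-manipulated and at 57466, 63049 and 57783 CPM in the albumen-deprived hens, with a log2-fold change of -0.27 ± 0.20 that did not pass the test although the groups did not overlap. ESR1, the estrogen receptor that drives these genes, was at 0.45 ± 0.26. The synthesis of the fat itself showed no call, with 0 of 24 lipogenesis genes past a P-value of 0.05 (against 3.23% of all loci) and a median of 0.08. Its members included FASN, fatty acid synthase, at -0.25, ACACA, which makes malonyl-CoA, at 0.49, and SCD, the desaturase, at 0.10 (SE 0.46, 0.44 and 0.44). In fatty acid beta-oxidation 0 of 22 genes passed, and lists this short without a call are near the share of all loci called. Of these 22 genes 15 were above 0, with a median of 0.09. The groups did not overlap for 6 of them with the albumen-deprived hens higher (against 4.55% of all loci), and for 0 with them lower (against 3.84%).

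**Figure D2:**
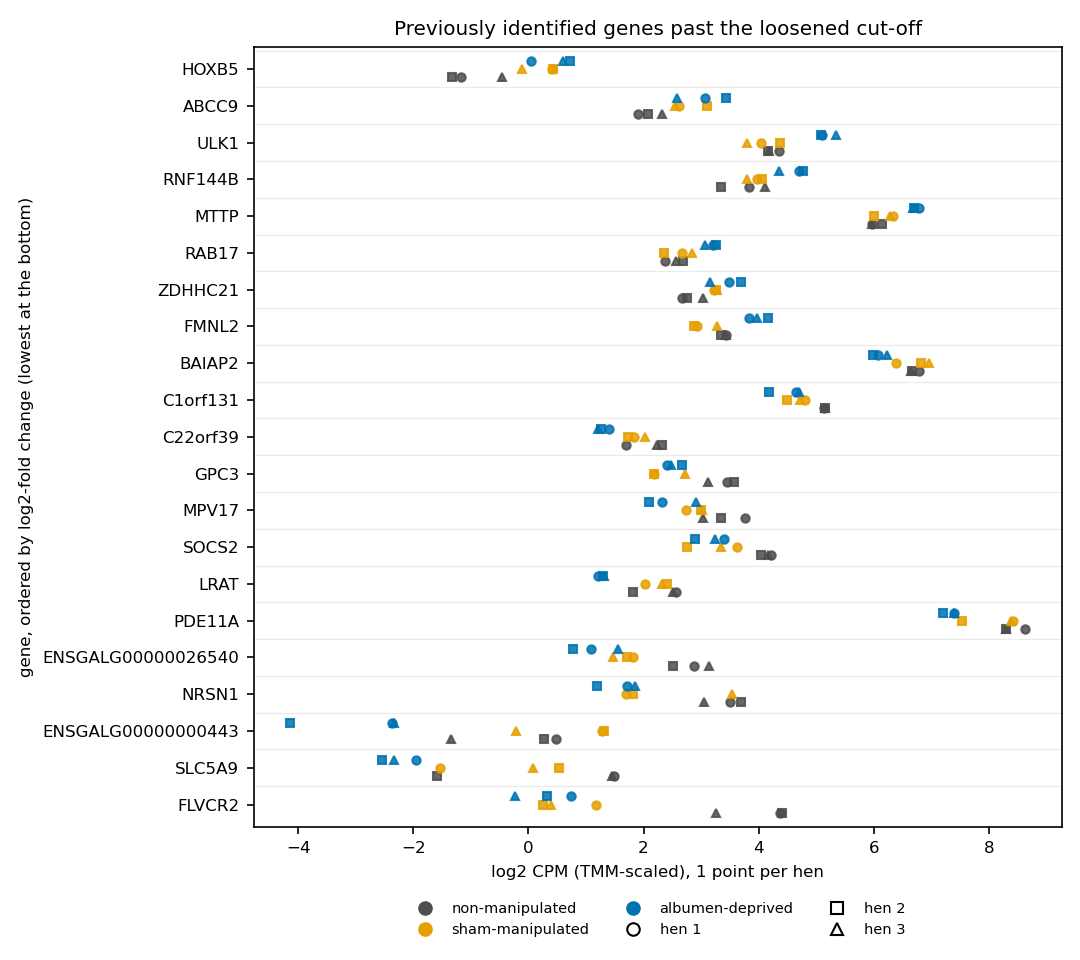
TMM-scaled log2 CPM of the 21 previously identified genes past the loosened cut-off, with 1 point per hen and the genes ordered by their log2-fold change. In each gene the 3 albumen-deprived hens lie on 1 side of the 3 non-manipulated hens. The genes were chosen by their difference between these same hens, so this separation was nearly fixed by the choice. The sham-manipulated hens lie with the albumen-deprived hens for FLVCR2 and SOCS2 and with the non-manipulated hens for ULK1.

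Genes of cholesterol synthesis were mostly below 0 in this comparison, and the number called changed with the hens included. Of 21 tested members of the list 20 had a log2-fold change below 0, and the median was -0.66 against 0.0071 for all loci. At a P-value under 0.05, 6 fell (28.6%, against 1.57% of all loci) and 0 rose. NSDHL, a sterol dehydrogenase, was at 51.6, 47.0 and 60.0 CPM in the non-manipulated hens and at 19.8, 13.5 and 44.03 CPM in the albumen-deprived hens (log2-fold change -1.04 ± 0.38). LSS, lanosterol synthase, was at 112, 103 and 154 CPM against 51.02, 32.7 and 102 CPM (log2-fold change -0.998 ± 0.37). In both, albumen-deprived hen 3 was only just below the lowest non-manipulated hen. The members that fell also included MVD, which forms isopentenyl diphosphate (log2-fold change -0.83 ± 0.30), DHCR7, which acts at the end of the pathway (-0.76 ± 0.32), and CYP51A1, the lanosterol demethylase (-1.003 ± 0.44).

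Albumen-deprived hen 3 stood apart from hens 1 and 2 in much of the pathway. For SQLE, squalene epoxidase, the albumen-deprived hens were at 36.6, 16.5 and 123.2 CPM, and the non-manipulated hens were at 107, 111 and 167 CPM (log2-fold change -1.13 ± 0.59). Hens 1 and 2 of the albumen-deprived group were thus below all non-manipulated hens and hen 3 was within their range. Averaged over the 21 members, the log2 deviation from the mean of the 9 hens was 0.353 to 0.715 in the non-manipulated hens and -0.332, -0.845 and 0.401 in albumen-deprived hens 1 to 3. Without albumen-deprived hen 3 the number of members that fell was 15 and the median was -1.11, whereas the number was 1 without albumen-deprived hen 1, without albumen-deprived hen 2 or without non-manipulated hen 3. The sham-manipulated hens were also low, with an average deviation of -0.423 to 0.0529, and none of the 6 genes passed the test between albumen-deprived and sham-manipulated hens (log2 difference for LSS -0.16 ± 0.37).

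Genes of bile acid synthesis and transport were higher in part. Of 19 tested members 4 rose (21.1%, against 1.66% of all loci) and 0 fell at a P-value under 0.05. In this list 16 were above 0 and the median was 0.12 (0.24 without non-manipulated hen 1, 0.38 without non-manipulated hen 3, 0.19 without albumen-deprived hen 1). Such a median was not particular to bile acid genes. It was 0.13 for gluconeogenesis and glycolysis (21 of 26 above 0), 0.16 for amino acid transport (15 of 19) and 0.15 for other cytochrome P450 genes (10 of 13). CYP39A1, which hydroxylates a side-chain oxysterol, was at 90.3, 88.8 and 105 CPM in the non-manipulated and at 114, 131 and 120 CPM in the albumen-deprived hens (log2-fold change 0.36 ± 0.12). CYP7B1, the oxysterol hydroxylase of the alternative pathway, was at 212, 244 and 199 CPM against 364, 272 and 252 CPM (0.44 ± 0.17). For both genes the groups did not overlap, and the albumen-deprived hens were also above the sham-manipulated hens, by 0.66 ± 0.12 and 0.68 ± 0.17 on the log2 scale. HSD3B7, the next enzyme of the pathway, had a log2-fold change of 0.42 ± 0.17. NR0B2, a nuclear receptor without a DNA-binding domain that represses bile acid synthesis in mammals, had 0.59 ± 0.23, and its level in albumen-deprived hen 3, 34.0 CPM, was within the non-manipulated range of 29.5 to 42.3 CPM.

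CYP7A1, the rate-limiting enzyme of the classical pathway, was not among them. It was at 70.0, 43.1 and 55.6 CPM in the non-manipulated and at 58.4, 76.8 and 45.2 CPM in the albumen-deprived hens (log2-fold change 0.10 ± 0.34), while the sham-manipulated hens were lower at 21.4, 8.53 and 20.3 CPM. ABCB11, the pump that exports bile salts, had a log2-fold change of 0.50 ± 0.28. Averaged over the 19 members, the albumen-deprived hens lay close together at 0.118 to 0.129 and the non-manipulated hens lay at -0.104 to 0.114, so the groups were separated by very little. The number of members that rose was 2 without non-manipulated hen 1, 1 without non-manipulated hen 3, 2 without albumen-deprived hen 1 and 2 without albumen-deprived hen 2, with a log2-fold change down to 0.31 for CYP39A1 (without albumen-deprived hen 2), 0.27 for CYP7B1 (without albumen-deprived hen 1), 0.34 for HSD3B7 (without non-manipulated hen 2) and 0.46 for NR0B2 (without albumen-deprived hen 1 or 2).

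**Figure D3:**
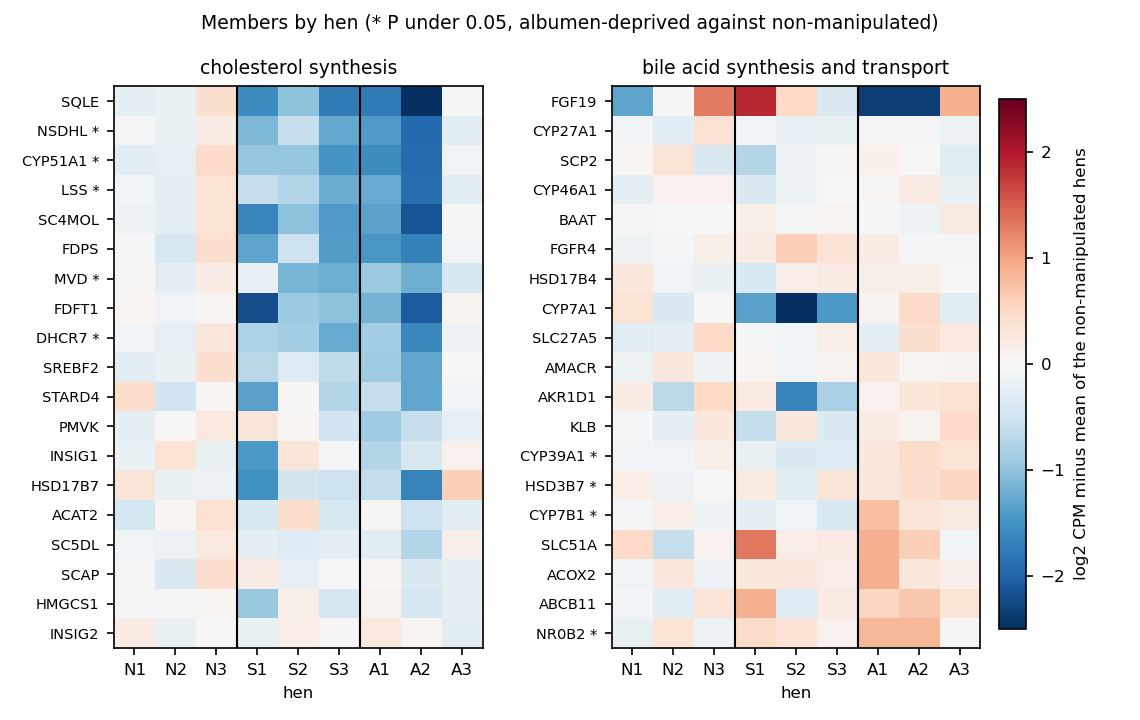
Log2 difference of each hen's TMM-scaled CPM (with a pseudocount of 0.1 CPM) from the mean of the non-manipulated hens, for tested members of the cholesterol list (left, 19 shown) and the bile acid list (right), with N for non-manipulated, S for sham-manipulated and A for albumen-deprived hens 1 to 3 and a star at members past a P-value of 0.05. Hens A1 and A2 are low in most of the cholesterol genes, A3 is not, and the sham-manipulated hens are low as well.

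In the growth hormone and insulin-like growth factor list 2 of 20 tested genes fell (10%, against 1.57% of all loci) and 0 rose. SOCS2, which damps the signal of the growth hormone receptor, was at 18.5, 16.4 and 17.9 CPM in the non-manipulated and at 10.6, 7.47 and 9.46 CPM in the albumen-deprived hens (log2-fold change -0.94 ± 0.22). GPC3, a cell surface heparan sulfate proteoglycan that restrains growth in mammals, was at 10.98, 11.9 and 8.74 CPM against 5.30, 6.39 and 5.59 CPM (-0.87 ± 0.20). Neither gene overlapped between the groups. The sham-manipulated hens were low for both, and albumen-deprived minus sham-manipulated was -0.09 ± 0.22 for SOCS2 and 0.15 ± 0.20 for GPC3. The growth hormone receptor GHR was at 0.04 and the binding protein IGFBP1 at 0.39 ± 0.58.

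In the thyroid hormone list 1 of 14 genes fell (7.14%, against 1.57% of all loci) and 0 rose. THRB, the main thyroid hormone receptor of liver, was at 26.7, 39.9 and 27.3 CPM in the non-manipulated and at 22.9, 20.5 and 24.6 CPM in the albumen-deprived hens (log2-fold change -0.47 ± 0.16). Non-manipulated hen 2 was the high one, and without it the call was lost (log2-fold change -0.26), as it was without albumen-deprived hen 2 (-0.40). The other receptor, THRA, was at -0.01. DIO2, which activates thyroid hormone, was at 93.9, 5.00 and 43.1 CPM against 242, 58.9 and 114 CPM, and with such a spread its log2-fold change of 1.55 ± 0.99 did not pass the test. DIO1 was at 0.07.

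Genes of heme handling and of vitamin A storage were called in both directions. HMOX1, the enzyme that degrades heme, was at 204, 319 and 264 CPM in the non-manipulated and at 365, 410 and 321 CPM in the albumen-deprived hens, with a log2-fold change of 0.48 ± 0.19. The lowest albumen-deprived hen was just above the highest non-manipulated hen. In the heme list, which also holds FLVCR2, 1 of 22 tested genes rose and 2 fell (13.6% called, against 3.23% of all loci). ALAS1, the rate-limiting enzyme of heme synthesis in liver, was at -0.66 ± 0.57. LRAT, which esterifies retinol for storage and is a mark of stellate cells, was at 5.89, 3.53 and 5.71 CPM against 2.32, 2.45 and 2.5 CPM. The log2-fold change was -1.06 ± 0.24, the groups did not overlap, and it was lower than in the sham-manipulated hens too (-0.98 ± 0.24). LRAT was the 1 stellate cell and fibroblast marker of 13 that fell (7.69%, against 1.57% of all loci). The summed level of these markers was 243.7 to 494.6 CPM in the non-manipulated and 298.5 to 345.9 CPM in the albumen-deprived hens. BCMO1, which cleaves beta-carotene to retinal, rose with 0.49 ± 0.20, and RBP4, the carrier of retinol in blood, was at 0.14. The call of HMOX1 was lost without non-manipulated hens 1 or 3 or albumen-deprived hens 1 or 2 (log2-fold change 0.33 to 0.48), and that of BCMO1 without non-manipulated hens 1 or 3 or albumen-deprived hens 1 or 2 (0.30 to 0.52).

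Among 29 nuclear receptors and cofactors 3 rose and 1 fell (13.8% called, against 3.23% of all loci). ESR2, the second estrogen receptor, was at 15.8, 13.3 and 19.5 CPM in the non-manipulated and at 21.8, 38.3 and 29.1 CPM in the albumen-deprived hens (log2-fold change 0.87 ± 0.30). RORA, an orphan receptor that also drives the circadian clock, was at 14.6, 14.0 and 16.3 CPM against 18.2, 20.1 and 20.4 CPM (0.39 ± 0.14). For both genes each albumen-deprived hen was above each other hen of the series, and both also differed from the sham-manipulated hens, by 0.82 ± 0.30 and 0.65 ± 0.14 on the log2 scale. The call of ESR2 was lost without non-manipulated hen 2 (log2-fold change 0.74) or albumen-deprived hen 2 (0.65), and that of RORA without non-manipulated hens 1 or 2 or albumen-deprived hens 2 or 3 (0.34 to 0.37). The other members were NR0B2 and THRB, named above. NR3C1, the glucocorticoid receptor, was at -0.01 ± 0.15.

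Of 16 glucocorticoid-related genes 2 rose (12.5%, against 1.66% of all loci) and 0 fell. SIK1, a kinase induced by cyclic AMP that restrains glucose production in mammalian liver, was at 19.5, 17.2 and 23.6 CPM in the non-manipulated and at 35.3, 49.3 and 30.3 CPM in the albumen-deprived hens. The groups did not overlap, and the log2-fold change was 0.93 ± 0.28, with a P-value under 0.05 under each of the 19 other settings. Sham-manipulated hens 1 and 2, at 28.9 and 37.5 CPM, were within or near the albumen-deprived range. HSD11B1L, related to the enzyme that regenerates active glucocorticoid, had a log2-fold change of 0.48 ± 0.18, a call that was lost without non-manipulated hens 1 or 3 or albumen-deprived hen 1 (0.41 to 0.45). PCK1, the gluconeogenic enzyme that glucocorticoids and cyclic AMP induce, was at 269, 103 and 30.1 CPM against 148, 115 and 77.5 CPM, a log2-fold change of -0.24 ± 1.20.

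In amino acid breakdown few genes moved. FAH, the last enzyme of tyrosine breakdown, was at 50.3, 52.9 and 56.7 CPM in the non-manipulated and at 78.6, 71.1 and 77.6 CPM in the albumen-deprived hens. The groups did not overlap, and the log2-fold change of 0.51 ± 0.12 stayed past a P-value of 0.05 under each of the 19 other settings. The sham-manipulated hens were at 74.6, 80.0 and 65.9 CPM (albumen-deprived minus sham-manipulated 0.04 ± 0.12). FAH was the 1 gene called among 51 genes of amino acid breakdown outside the tryptophan pathway (1.96%, against 3.23% of all loci). The median of that list was 0.08. IDO2, a tryptophan-degrading dioxygenase, rose with a log2-fold change of 3.10 ± 0.90, but at 5.23, 12.1 and 0.591 CPM only albumen-deprived hens 1 and 2 were above the non-manipulated range of 0.504 to 0.867 CPM.

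In the list of amino acid response and endoplasmic reticulum stress 1 gene of 28 tested fell (3.57%, against 1.57% of all loci). In this list 25 were below 0 and the median was -0.22. These values rested largely on non-manipulated hen 2, without which 17 genes were below 0, the median was -0.04 and 0 fell. The average log2 deviation of the list was 0.355 in that hen, -0.0436 and -0.0942 in non-manipulated hens 1 and 3, and -0.257 to -0.0771 in the albumen-deprived hens. The gene that fell was ASNS, asparagine synthetase, at 27.7, 124 and 51.01 CPM in the non-manipulated and 36.8, 29.0 and 33.4 CPM in the albumen-deprived hens (log2-fold change -1.03 ± 0.45). The groups overlapped, and non-manipulated hen 2 stood high, with a log2-fold change of -0.26 without it, and the call was also lost without any 1 of the sham-manipulated or albumen-deprived hens (-0.95 to -1.12). HSPA5, the chaperone of the endoplasmic reticulum, was at -0.77 ± 0.43, and ATF4, the transcription factor of the response, was at -0.01. Outside this list, SLC2A9, a urate and sugar transporter, was at 33.1, 44.9 and 34.9 CPM against 58.3, 72.02 and 44.9 CPM (0.63 ± 0.23), a call that was lost without non-manipulated hens 1 or 3 or albumen-deprived hen 2 (0.46 to 0.58). It was listed with gluconeogenesis and glycolysis and with purine and uric acid synthesis.

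The other named genes past the loosened cut-off belonged to no list. Of those that rose, RNF144B, a ubiquitin ligase, was at 14.2, 10.2 and 17.2 CPM in the non-manipulated and at 26.1, 27.3 and 20.4 CPM in the albumen-deprived hens (log2-fold change 0.82 ± 0.20). FMNL2, a formin that elongates actin filaments, was at 10.8, 10.1 and 10.8 CPM against 14.2, 17.8 and 15.6 CPM (0.59 ± 0.15). In both genes every albumen-deprived hen was above every other hen of the series. ABCC9, the regulatory subunit of potassium channels gated by ATP, had a log2-fold change of 0.96 ± 0.25, RAB17, a small GTPase of membrane traffic, 0.63 ± 0.17, ZDHHC21, a palmitoyltransferase, 0.63 ± 0.17, and HOXB5, a homeobox transcription factor close to the detection limit, 1.39 ± 0.37.

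Of those that fell, BAIAP2, an adaptor protein of the actin cytoskeleton, was at 110, 101 and 99.8 CPM in the non-manipulated and at 67.6, 63.2 and 75.2 CPM in the albumen-deprived hens (log2-fold change -0.59 ± 0.16). It was also lower than in the sham-manipulated hens (-0.64 ± 0.16). MPV17, a protein of the inner mitochondrial membrane that is needed to maintain mitochondrial DNA, was at 13.6, 10.2 and 8.23 CPM against 4.97, 4.28 and 7.49 CPM (-0.93 ± 0.25). NRSN1, a vesicle protein known from neurons, was at 11.3, 13 and 8.29 CPM against 3.29, 2.28 and 3.61 CPM (-1.82 ± 0.48). Sham-manipulated hens 1 and 2 were as low as the albumen-deprived hens for NRSN1 and hen 3, at 11.7 CPM, was not. The log2-fold change was -0.62 ± 0.15 for C1orf131 and -0.82 ± 0.22 for C22orf39. SLC5A9, a sodium-dependent sugar transporter, had 4, 3 and 3 counts in the albumen-deprived hens and 38, 5 and 49 in the non-manipulated hens (-3.19 ± 0.84), so that non-manipulated hen 2 was near the albumen-deprived hens. ENSGALG00000000443 had 3, 1 and 3 counts in the albumen-deprived hens and 19, 18 and 7 in the non-manipulated hens. Set against the floor of 3 counts per library (0.187 CPM), the mean of the non-manipulated hens was at least 5.32-fold higher. That bound holds for the mean only, since non-manipulated hen 3, at 0.392 CPM, was nearer to the floor. The authors list this gene as SPAG-4 like, and their qPCR in a larger set of hens found no significant difference for it.

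Against the sham-manipulated hens, 11 of the 21 named genes past the loosened cut-off also differed at a P-value under 0.05, and 10 did not. Over all loci this contrast called 7.13% (4.11% higher and 3.02% lower), and it shares the albumen-deprived hens with the main comparison. Among the 9 loci without a name 8 also differed from the sham-manipulated hens. The 10 were FLVCR2, ENSGALG00000026540, GPC3, SOCS2, C1orf131, NRSN1, ABCC9, HOXB5, MPV17 and ZDHHC21, with log2 differences from the sham-manipulated hens between -0.99 (NRSN1) and 0.29 (ABCC9). All of these but NRSN1 and MPV17, 8 of the 21 named genes, also differed between sham-manipulated and non-manipulated hens at a P-value under 0.05, in the same direction. Sham-manipulated minus non-manipulated was -1.20 for ENSGALG00000026540, -0.47 for C1orf131, 0.67 for ABCC9, 1.17 for HOXB5 and 0.42 for ZDHHC21. That contrast shares the non-manipulated hens with the main comparison. Each of the 30 loci stayed at a P-value under 0.05 when any 1 library was left out, and the number still past the loosened cut-off then ran from 9 (without albumen-deprived hen 2) to 21 (without sham-manipulated hen 2), with 11, 12 and 17 without non-manipulated hens 1 to 3, 14 and 15 without albumen-deprived hens 1 and 3, and 19 without either of sham-manipulated hens 1 and 3. FLVCR2, ENSGALG00000026540, ULK1 and MTTP were among those that passed it whichever library was left out.

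Further list members past a P-value of 0.05 were scattered over many pathways. Of 13 cytochrome P450 genes outside the bile acid list 2 rose and 1 fell (23.1% called, against 3.23% of all loci). CYP2C45 was at 56.4, 20.5 and 31.0 CPM in the non-manipulated and at 201, 63.6 and 48.2 CPM in the albumen-deprived hens (log2-fold change 1.54 ± 0.55). Reads that matched several members of its family would have been removed as poorly mapped. The groups of CYP2C45 overlapped, and its call was lost without albumen-deprived hen 1 (0.64), non-manipulated hen 2 (1.25) or non-manipulated hen 3 (1.44). CYP2U1 rose with 0.50 ± 0.20 and CYP20A1 fell by 0.37 ± 0.16. The merged locus of the arylamine acetyltransferases NAT, PNAT10 and PNAT3 rose with 0.58 ± 0.21. PLAU, the urokinase that activates plasminogen, rose with 0.70 ± 0.24, and COLEC10, a liver collectin of innate defence, fell by 0.50 ± 0.19. Each of these calls was lost when single hens were left out. For CYP2U1 these were non-manipulated hen 1 and albumen-deprived hens 1 and 2 (log2-fold change 0.31 to 0.49), for CYP20A1 non-manipulated hens 1 and 3 and albumen-deprived hens 2 and 3 (-0.25 to -0.36), and for the merged locus NAT /// PNAT10 /// PNAT3 non-manipulated hen 1 (0.45) and albumen-deprived hen 1 (0.36). For PLAU they were non-manipulated hens 1 and 2 and albumen-deprived hen 1 (0.53 to 0.65), and for COLEC10 non-manipulated hens 1 and 3 and albumen-deprived hen 1 (-0.33 to -0.51).

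Members tied to cell death, the cell cycle and development were called singly. TP53I3, a target of p53, had a log2-fold change of 1.41 ± 0.56, CASP9, an initiator caspase, of -0.36 ± 0.16, and RB1, the retinoblastoma protein that restrains the cell cycle, of -0.64 ± 0.24. The groups of these 3 genes overlapped. GATA5, a transcription factor of endoderm, had 2.12 ± 0.85, but at 2.39, 1.25 and 9.59 CPM it stood highest in albumen-deprived hen 3, and the call was lost without that hen (0.84) or without non-manipulated hens 1 or 3 (1.67 and 1.96). TLR7, a receptor for single-stranded RNA, was at 1.62, 1.07 and 1.01 CPM in the non-manipulated and at 1.87, 2.17 and 1.84 CPM in the albumen-deprived hens (0.68 ± 0.29), and it was lower there than in the sham-manipulated hens (-0.78 ± 0.27). The call of TP53I3 was lost without non-manipulated hen 2 or albumen-deprived hens 1 or 2 (log2-fold change 0.96 to 1.36), that of RB1 without non-manipulated hens 2 or 3 or albumen-deprived hens 2 or 3 (-0.52 to -0.59), that of CASP9 without any 1 hen other than non-manipulated hen 1 and albumen-deprived hen 3 (-0.23 to -0.37), and that of TLR7 without any 1 hen other than non-manipulated hen 1 and sham-manipulated hen 2 (0.55 to 0.71).

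Over all loci 3.23% were called at a P-value under 0.05, so a short list without any call is near that share. Many programs of the liver showed no such call, which does not show that they were unchanged. They were the 10 hepatocyte markers, 11 macrophage markers (median log2-fold change 0.28, and -0.02 without non-manipulated hen 1), 14 endothelial, 13 T and NK cell and 9 heterophil markers, and the acute phase (13 genes), interferon response (28), antigen presentation (13), iron (19), amino acid transport (19), collagen (21) and proteasome (32) lists. Of the amino acid transport genes 15 were above 0 and 4 below, with a median of 0.16. Their average log2 deviation was -0.128 to 0.0319 in the non-manipulated and 0.0761 to 0.308 in the albumen-deprived hens. In oxidative phosphorylation 0 of 59 genes passed. Of 65 ribosomal protein genes 0 passed, 59 were below 0 and the median was -0.11, but without albumen-deprived hen 1 the number below 0 was 41 and the median -0.03, and without non-manipulated hen 2 they were 49 and -0.03. Of 25 complement genes only COLEC10 fell (4%, against 1.57% of all loci). Of 25 coagulation genes only PLAU rose (4%, against 1.66% of all loci).

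**Figure D4:**
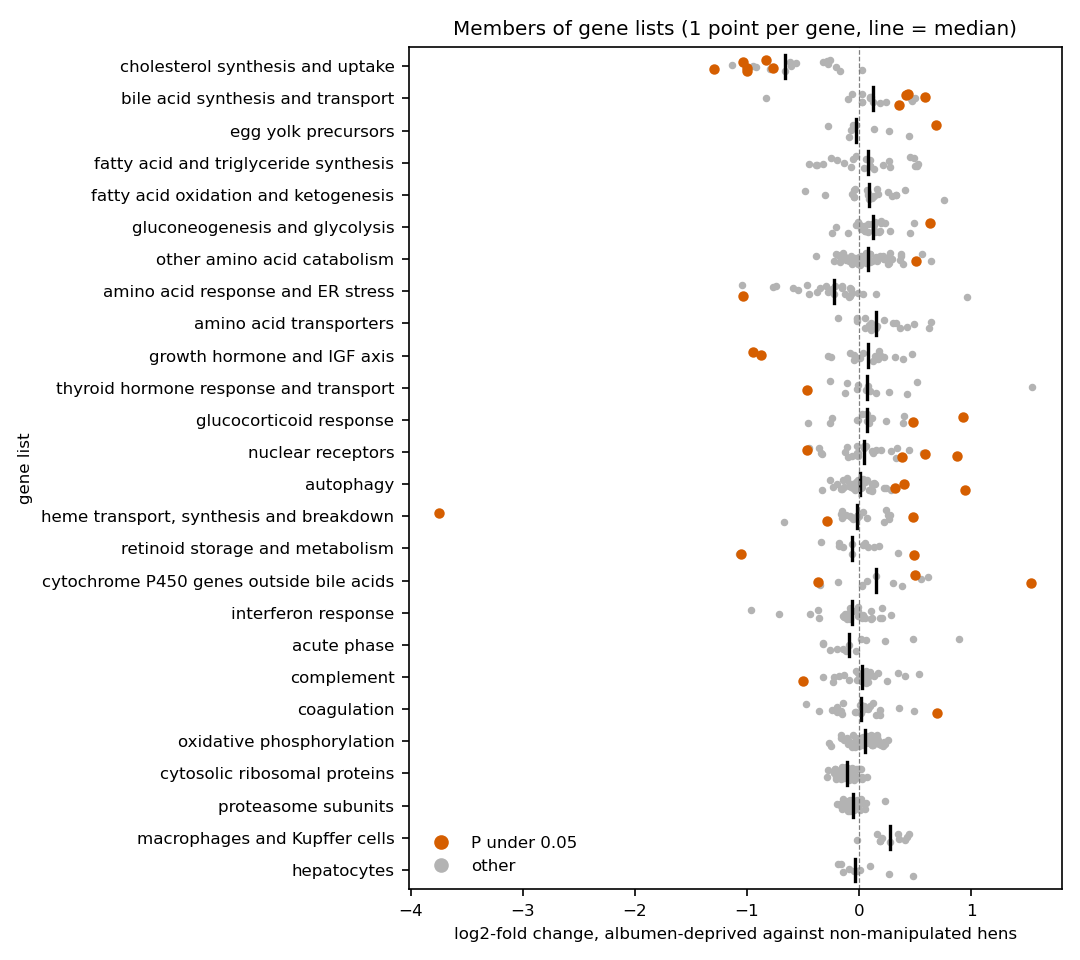
Log2-fold change (albumen-deprived minus non-manipulated) of the tested members of the gene lists, with 1 point per gene and the median of each list. The median of the cholesterol list is at -0.66, below those of the other lists drawn. The bile acid list is centred at 0.12, near gluconeogenesis and glycolysis at 0.13 and amino acid transporters at 0.16.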

How the data were processed

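Liver RNA of 9 hens was sequenced, and the 6 libraries compared here were assigned by the sample labels. The authors mapped single-end reads to Galgal4 with TopHat2 2.0.8b, removed non-primary and poorly mapped alignments, merged Cufflinks 2.1.1 models with the Ensembl annotation, and obtained locus counts from HTSeq 0.5.4p3 in its unstranded mode. The authors deposited raw counts for 22082 loci, with each locus's length in bases and its GC content in percent. The other deposited tables, FPKM values and the authors' comparisons (log2-fold changes, P-values, false discovery rates and DE calls), were not used. Because strand was ignored, reads of overlapping or antisense loci cannot be told apart.

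A locus was tested if at least 3 of the 9 libraries exceeded 1 CPM (12324 loci, of which 10341 had a name). The fit used edgeR 4.0.16 (R 4.3.3) with TMM scaling, all 9 libraries and 1 coefficient for each group, and its quasi-likelihood F-test. The common dispersion was 0.063, and 6 residual and 3.32 prior degrees of freedom entered the test. The standard error is the log2-fold change divided by the square root of F, and P-values were adjusted by Benjamini-Hochberg over all loci. Totals of 13720872 to 21747636 counts per library set the precision of low levels. Lists are described by counts and medians. Named genes were those past the DE cut-off, the previously identified genes past the loosened cut-off, list members at P under 0.05 and members that define a list. The hens are separate samples. Each P-value sets the group difference against the spread between like-treated hens, estimated over all 9 hens and moderated across loci. Alternatives were DESeq2 1.42.0, edgeR's likelihood ratio test, other scalings and filters, a replicate block and each library left out. The comparison, the gene lists and the genes named were chosen with earlier results of these data known. The code was tested on simulated data. Some genes are not reported here.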

Additional observations from a re-analysis of the deposited data

How the results depend on the processing

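Under 19 other settings no call of the 66 named genes at a P-value under 0.05 changed direction. A change of direction was unlikely in advance, since the genes were chosen at that threshold and each setting reused the same hens. Of 1250 combinations of gene and setting, 836 stayed on the same side of their cut-off and 414 fell short of it. The number of DE genes was 6 and became 16 with the likelihood ratio test, 16 with DESeq2 and 13 from replicates 1 and 2 of each group alone. Loci past the loosened cut-off numbered 30, and 67 and 64 with the first and second of these tools. The count at a P-value under 0.05 was 398, and 630 without a filter on low counts. Cholesterol members that fell numbered 6, and 10 without a filter, with DESeq2, with a replicate block and with the block and full quantile normalization within GC bins together, and 14 from replicates 1 and 2 alone. Bile acid members that rose numbered 4, and 2 from replicates 1 and 2 alone.

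Leaving out 1 library gave 4 to 10 DE genes, 22 to 55 loci past the loosened cut-off, 305 to 513 loci at a P-value under 0.05, 1 to 15 cholesterol members and 1 to 5 bile acid members. The counts of 10 and 55 came from leaving out albumen-deprived hen 3. The cause was not tested. With the replicate number as a block, there were 4 DE genes (0 higher and 4 lower), 31 loci past the loosened cut-off and 422 at a P-value under 0.05. The deviations of same-numbered hens from their group means had correlations of -0.0454, -0.156 and 0.24 for numbers 1 to 3. The highest between differently numbered hens was 0.27 (albumen-deprived hen 1 and non-manipulated hen 2). Thus no pairing was seen for the numbers 1 and 2 in these correlations. They cannot exclude it, since deviations from a mean of 3 hens depend on each other and the sham-manipulated hens were left out. For number 3 the picture is less clear, since its albumen-deprived and non-manipulated libraries differed least of all pairs (chi-square per degree of freedom 16.8, against 89.4 for the most unlike pair). Sham-manipulated hen 3 was at 22.1 against albumen-deprived hen 3 and at 25.1 against non-manipulated hen 3. The differently numbered pair of non-manipulated hen 1 and albumen-deprived hen 2 was at 24.7. Whether the hens numbered 3 share a source of variation was not tested. With 3 hens per group and a median standard error of 0.214 on the log2 scale, small differences were not detectable.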
